A study of Gallus gallus with 6 samples.

Results

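SHH is 1 of the 24881 chicken gene IDs in the deposited table, and its level was followed here in every library of an experiment that placed FGF2 beside the posterior limb bud mesoderm for 3 h. The row was taken by its Ensembl ID, ENSGALG00000006379, given as chicken SHH when the gene was chosen for description. The table lists IDs alone, and the RefSeq gene table used here (assembly GRCg7b) has 1 gene with the symbol SHH but pairs none of its 25635 genes with an Ensembl ID, so the name of the row was not checked against the files. Fertile chicken eggs of no stated strain were incubated to Hamburger-Hamilton stage 23, and a heparin acrylic bead soaked in recombinant human FGF2, or in PBS for the controls, was set into the posterior forelimb bud about 500 µm from its distal tip. Tissue on the posterior side of the bead was collected 3 h later, and total RNA from pools of 15 to 20 limbs was sequenced. There were 3 FGF2 and 3 PBS libraries, and both treatments carried a bead, so that what differed by design was the FGF2 on it. Each library is thus a pool, its spread is that between pools, and a change in the number of SHH-expressing cells in the piece removed cannot be told apart from a change in SHH RNA per cell.

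Sonic hedgehog is a secreted signal made in the limb bud by the zone of polarizing activity, a group of mesodermal cells at the distal posterior margin. It binds the receptor Patched, which relieves the inhibition of Smoothened and lets the GLI transcription factors activate their targets, and it sets the number and identity of digits along the anterior-posterior axis. In the limb its transcription depends on a distant enhancer, the ZPA regulatory sequence, and on FGFs from the apical ectodermal ridge, which in turn is maintained by SHH signaling. The comparison of FGF2 with PBS addresses how this loop acts on cells that lie proximal to the ridge, where SHH expression normally fades. Patched, GLI and FGF feedback genes could not be placed beside SHH, since no ID is paired with a name, and the markers of mesoderm, ectoderm, muscle or blood were not analysed here for the same reason.

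The study also designed oligonucleotides to the SHH transcript, shown here because they name the sequence by which SHH was followed outside the sequencing. Each is written 5′ to 3′ in lower case, with no base marked.
SHH RT-qPCR forward primer: gtggcagagaagaccctagg
SHH RT-qPCR reverse primer: gagtcatcagtctgtcagctcc
SHH in situ probe forward primer: catggtcgaaatgctgctgttg
SHH in situ probe reverse primer: acgctgccactgcgttttctgc
The primers are 20 to 22 nt long. The measurements made with them were not analysed here.

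SHH was readily detected in all 6 libraries and was higher beside the FGF2 bead than beside the PBS bead in each of the 3 experiments. Its level is given in RPKM, the reads counted in a gene divided by the length of its model and by the total of the library. SHH stood at 45.3, 152 and 234 RPKM with FGF2 in experiments 1, 2 and 3. It stood at 31.8, 64.3 and 60.5 RPKM with PBS in the same experiments. The FGF2 libraries of experiments 2 and 3 were above every PBS library, whereas the FGF2 library of experiment 1 lay below the PBS libraries of experiments 2 and 3, so the groups overlapped. Libraries with the same replicate number are called an experiment here because they deviated together from their treatment means across genes.

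RPKM of weakly expressed genes move in steps of 1 read, and these steps gave back the reads behind each value. The gene model of SHH came out at 1552 bases, and SHH had 1077, 5047 and 7179 reads in the FGF2 libraries and 258, 1670 and 1586 reads in the PBS libraries of experiments 1, 2 and 3. The 95% Poisson intervals of these counts, which cover counting error only, ran from 28.1 to 36.0 RPKM in the PBS library of experiment 1 and from 228 to 239 RPKM in the FGF2 library of experiment 3. In the order of the 6 levels the only neighbours whose intervals overlapped were the PBS libraries of experiments 3 (57.6 to 63.6 RPKM) and 2 (61.3 to 67.5 RPKM). SHH was well expressed on the scale of the whole transcriptome. It exceeded 82.7% to 89.4% of the genes above 0 in the PBS libraries and up to 97.0% of those in the FGF2 libraries, in experiment 3. Its rank from the top moved from 2533 with PBS to 2050 with FGF2 in experiment 1, from 1419 to 639 in experiment 2 and from 1540 to 410 in experiment 3.

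**Figure D1:**
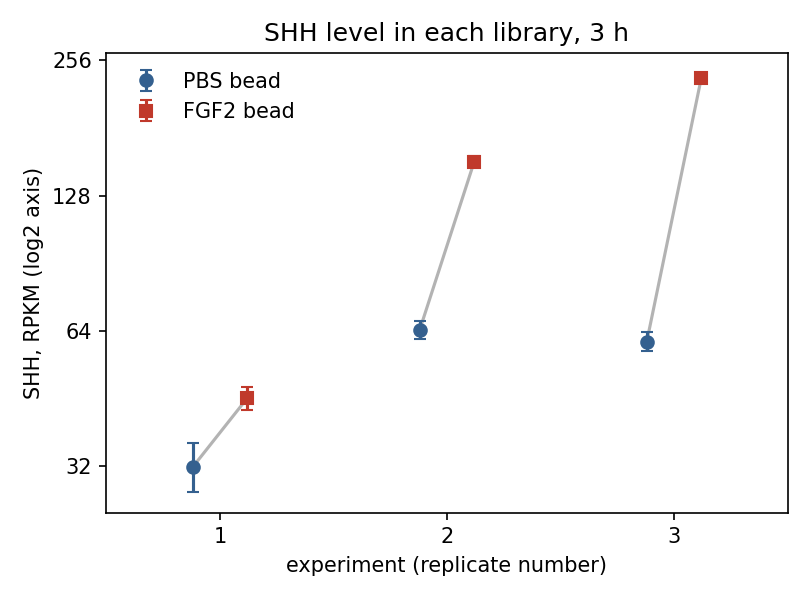
SHH level in RPKM (log2 axis) in each library against the experiment, with circles for PBS and squares for FGF2, and bars for the 95% Poisson interval of the reads (counting error only). The line joining each pair rises in all 3 experiments, from 31.8 to 45.3, from 64.3 to 152 and from 60.5 to 234 RPKM.

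Libraries held 5222427 to 21359458 counted reads. The PBS library of experiment 1 was the shallowest, and the other 5 held at least 15318608. It was also the library with the lowest SHH level. Among the FGF2 libraries, that of experiment 1 was likewise both the shallowest, with 15318608 reads, and the lowest in SHH. Experiment 1 nevertheless had the most genes above 0 with either bead. With FGF2 these were 15823, against 13202 and 13744 in experiments 2 and 3. With PBS they were 14664, against 12252 and 14500. The libraries of experiment 1 thus differed from the others in more than depth. The part of depth, or of the number of genes detected, in the SHH levels was not tested.

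The size of the FGF2 to PBS ratio differed between experiments by more than the counting error. The ratio of RPKM was 1.42 in experiment 1 (95% Clopper-Pearson interval from the reads 1.24 to 1.64). It was 2.37 in experiment 2 (2.24 to 2.50) and 3.86 in experiment 3 (3.65 to 4.08). The intervals do not overlap, but each ratio compares 1 library with 1 library, so they bear on these libraries and not on the spread between pools. In RPKM, the FGF2 library exceeded the PBS library by 13.5, 87.9 and 173. The PBS levels of experiments 2 and 3 were close to each other, so the larger ratio of experiment 3 lay in its FGF2 library. Experiment 1 had the lowest PBS level and also the lowest ratio. Its ratio was the one that depended most on scaling: with each library scaled by the median ratio of its genes to their geometric means, the ratios were 1.18, 2.30 and 3.64. The scaling factor was 1.21 for the FGF2 library of experiment 1 and 0.932 to 1.06 for the other 5 libraries.

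Averaged over the 3 libraries of a treatment, SHH was at 144 ± 94.4 RPKM beside FGF2 and 52.2 ± 17.8 RPKM beside PBS (SD, n = 3). On the log2(RPKM + 0.5) scale the difference was 1.23 (standard error 0.55, 95% interval -0.03 to 2.48). This did not pass the test: over the 13381 genes tested (mean RPKM of 0.5 or more), the adjusted p of SHH was 0.9996 (unadjusted p = 0.054, rank 501 by p) from limma with Benjamini-Hochberg adjustment. The same test called 0 genes (0%), with 457 genes, 339 of them higher with FGF2, at an unadjusted p under 0.05. An exact permutation test of SHH alone over the 6 libraries gave a two-sided p = 0.30, where 3 libraries against 3 cannot go below 0.10. Without the FGF2 library of experiment 3 the difference was 0.73, and without that of experiment 1 it was 1.91. The spread that entered this test was mostly that between experiments. The SD of log2 levels was 1.22 among the FGF2 libraries and 0.56 among the PBS libraries.

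Set against the PBS library of the same experiment, the difference had a smaller error but the result depended on the test. Here as in the unpaired test, the limma and limma-voom standard errors were drawn in part from the variance of other genes. The 3 paired log2 differences of SHH itself had an SD of 0.72. FGF2 was above PBS in 3 of 3 experiments, as it was for 20.6% of the genes tested. With the experiment as a block in limma, the log2 fold change of 1.23 had a standard error of 0.28 (95% interval 0.55 to 1.90) and an unadjusted p = 0.0041. It missed the threshold over all genes, with an adjusted p = 0.57 from limma, and this test also called 0 genes (0%), with 1124 at an unadjusted p under 0.05. SHH rose when its reads were tested by limma-voom with that block, by 1.50 on the log2 scale (standard error 0.22, 95% interval 1.03 to 1.97, adjusted p = 0.011). That test called 40 genes in either direction (0.299%) and 14 genes higher with FGF2 (0.105%), and SHH was one of the latter, at rank 17 of all genes by p. limma-voom without the block gave 1.14 (adjusted p = 0.94) and called 0 genes (0%), with 566 at an unadjusted p under 0.05.

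The larger estimate in the paired limma-voom fit went with the weights it gave to the libraries. Relative to a mean of 1, the SHH value of the PBS library of experiment 1 was weighted 0.152 and that of its FGF2 library 0.776, against 1.57 and 1.65 for the FGF2 libraries of experiments 2 and 3. The fold change was 1.62 without experiment 1 (adjusted p = 0.12 from limma-voom), 1.67 without experiment 2 (adjusted p = 0.00029) and 1.07 without experiment 3 (adjusted p = 0.056). Of the 13381 genes, these fits called 0 without experiment 1, 181 without experiment 2 and 75 without experiment 3. SHH thus passed only without experiment 2. Without experiment 1 no gene passed, and SHH stood at rank 3 by p. The direction could not have changed in any of these fits, since all 3 paired differences were above 0. With 2 pairs left these fits lean still more on the variance taken over from other genes. An exact test by sign flips of the 3 paired differences gave a two-sided p = 0.25, the smallest that 3 pairs allow.

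**Figure D2:**
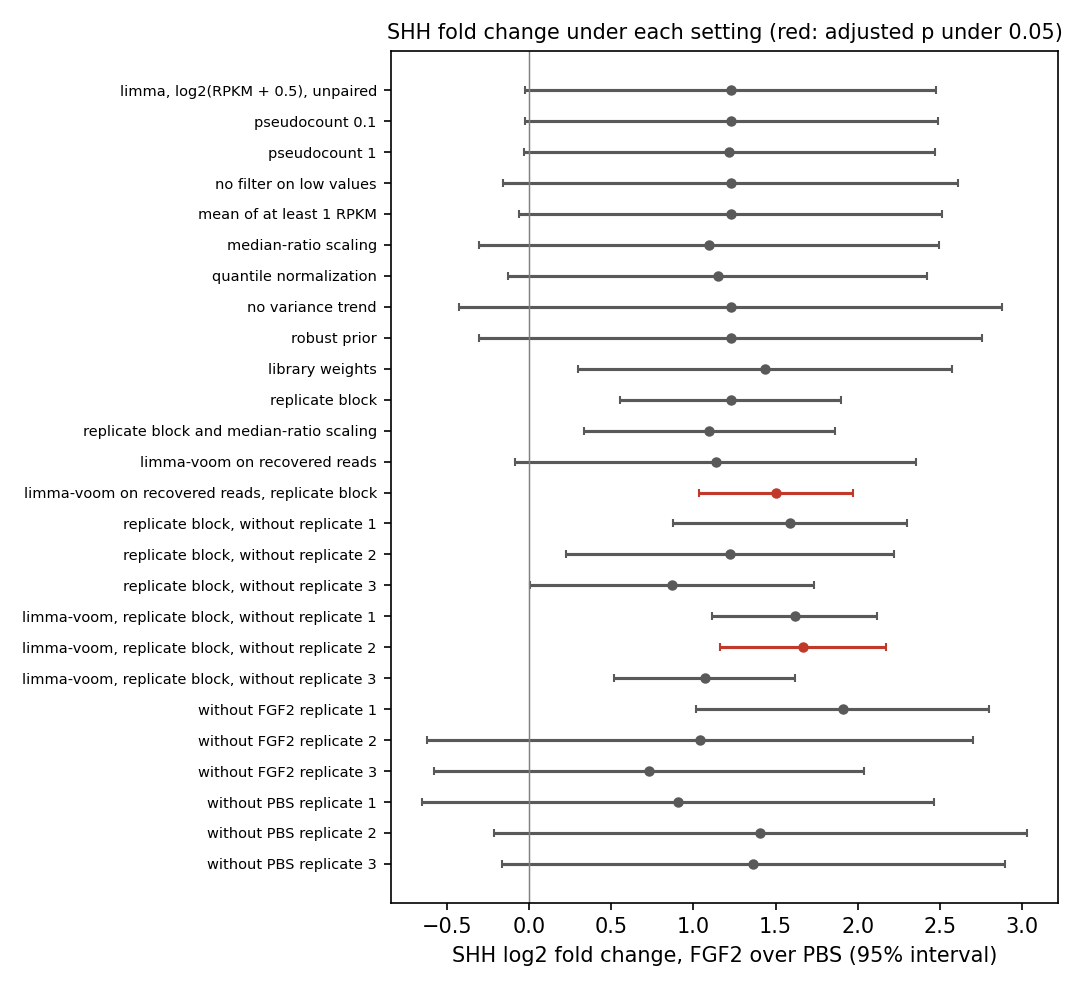
SHH log2 fold change of FGF2 over PBS (horizontal axis) with its 95% interval under each setting (vertical axis). All 26 estimates lie above 0, from 0.73 to 1.91, and red marks the 2 settings with an adjusted p under 0.05, both of them limma-voom with the replicate block. The settings share the same libraries, so their common sign is not separate evidence of direction.

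The FGF2 to PBS difference of SHH was large beside that of genes at a like level. These were the 500 genes tested whose mean log2 level was nearest to that of SHH, 250 on either side, with a median mean level of 78.9 RPKM against 98.0 RPKM for SHH. They are a description of these libraries and carry no test. In experiment 1 the log2 difference of SHH was 0.50, and 70 of the 500 genes had a larger one, so that SHH lay within their range there. In experiment 2 it was 1.24, with 6 genes above it. In experiment 3 it was 1.94, with 1 gene above it. The middle 90% of the 500 genes lay between -0.63 and 0.73, between -0.61 and 0.70, and between -0.63 and 0.59 in the 3 experiments. Averaged over the experiments, 3 of the 500 genes exceeded SHH. FGF2 was above PBS in all 3 experiments in 123 of them (24.6%), and in 16 these differences were, as in SHH, lowest in experiment 1 and highest in experiment 3. Over all 13381 genes tested, 438 had that order with all 3 differences above 0, a share close to that among the 500. The order itself was not tested. Against all genes tested the place of SHH was less extreme, with 68.6%, 88.4% and 95.3% of genes below it in the 3 experiments, a comparison that includes genes of few reads.

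**Figure D3:**
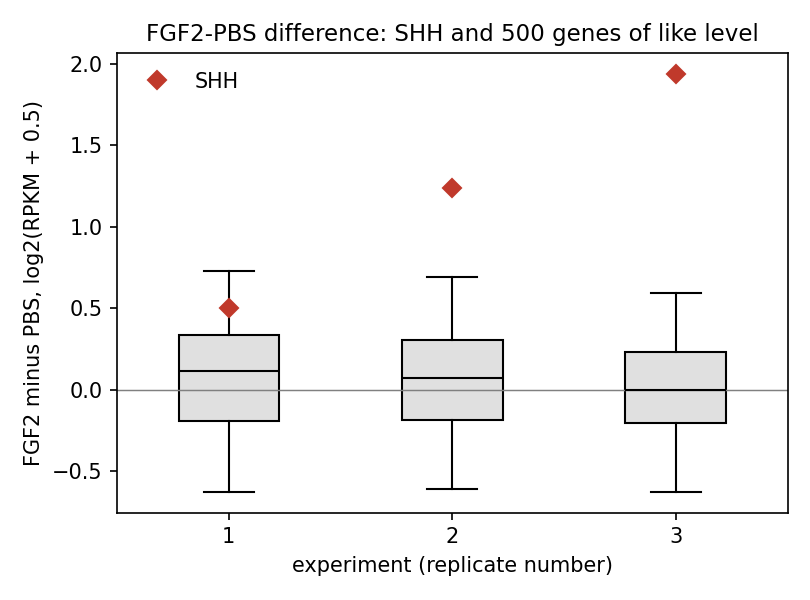
FGF2 minus PBS on the log2(RPKM + 0.5) scale in each experiment for SHH (diamonds) and for 500 genes of like mean level (boxes for the quartiles with the median, whiskers for the 5th and 95th percentiles). SHH lies inside the whiskers in experiment 1, at 0.50, and above them in experiments 2 and 3, at 1.24 and 1.94.

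The level of SHH also differed between experiments, and experiment 1 was the lowest with either bead. The PBS libraries, which give the base level, spanned a 2.02-fold range, and the FGF2 libraries a 5.16-fold range. The geometric mean of the FGF2 and PBS level was 38.0 RPKM in experiment 1, 99.0 RPKM in experiment 2 and 119 RPKM in experiment 3. On the log2 scale the experiment means differed by 1.63 from the lowest to the highest. In a moderated F test of the experiment in limma, with treatment in the model, SHH did not pass the threshold (adjusted p = 0.12, unadjusted p = 0.0056), while 244 of the 13381 genes did (1.82%). In limma-voom on the recovered reads the range was 2.04 and SHH passed (adjusted p = 0.0068), as did 582 genes (4.35%). Without the FGF2 library of experiment 1 the range in limma fell to 1.09. That fit gives experiment 1 the FGF2 to PBS difference of the other experiments, which was larger than its own.

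Genes of a like level mostly varied less between experiments. The range of the experiment means had a median of 0.38 over the 500 genes, and it was smaller than that of SHH in 98.8% of them. Among the PBS libraries alone the range of SHH was 1.004 on the log2 scale and exceeded that of 91.6% of the genes. Among the FGF2 libraries it was 2.35 and exceeded that of 99.0%. The FGF2 to PBS difference itself varied between experiments by 1.44 from the lowest to the highest, more than in 96.2% of the genes. Its SD over the 3 experiments, 0.72, exceeded that of 94.8% of the genes, whose median was 0.26. Against all genes tested the place of SHH was less extreme, a comparison that includes genes of few reads. There its range exceeded that of 77.0% of genes for the experiment means, 52.0% for the PBS libraries and 82.7% for the FGF2 libraries. For the FGF2 to PBS differences, 61.1% of all genes tested had a smaller range and 58.9% a smaller SD. Experiment 1 was lowest with both beads in 158 of the 500 genes (31.6%). The share over all genes tested was not computed. Same-numbered libraries that deviate together raise such a share for any experiment, so nothing is concluded from it about experiment 1. Of the squared deviations of SHH from its mean over the 6 libraries, 52.7% lay between experiments, 38.5% between treatments and 8.82% in neither. The means of these shares over the 500 genes were 50.8%, 22.8% and 26.3%, where the mean expected with no effect of either is 40%, 20% and 40%. The share of the experiment in SHH was above that in 51.4% of the 500 genes, and the share of the treatment was above that in 75.8%.

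**Figure D4:**
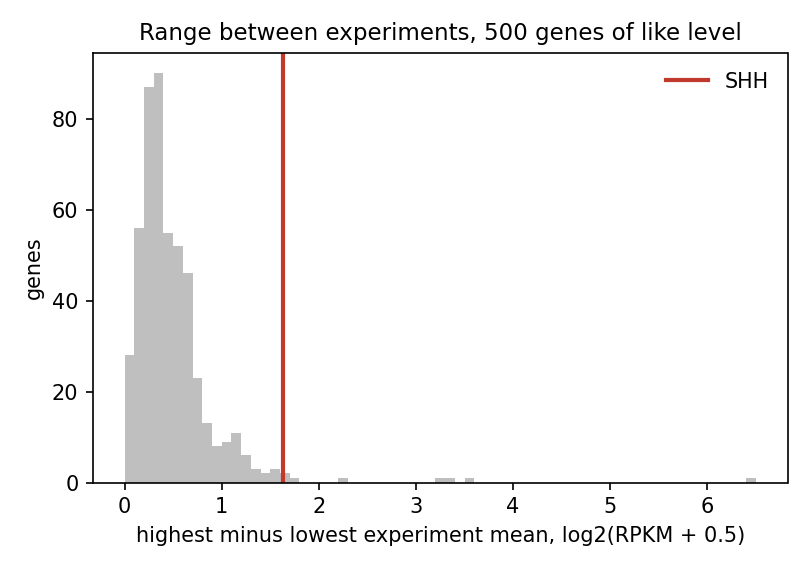
Number of genes (vertical axis) by the range of the 3 experiment means on the log2(RPKM + 0.5) scale (horizontal axis, bins of 0.1), for 500 genes of like mean level. The line for SHH stands at 1.63, above 98.8% of the genes, whose median is 0.38.

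Genes with a like pattern over the 6 libraries were sought among the genes tested, and likeness over 6 values that share depth and experiment carries no test. The Pearson correlation with SHH of log2(RPKM + 0.5) was above 0.9 for 107 genes (0.80%) and below -0.9 for 159 (1.19%), with a median of -0.06. ENSGALG00000006833 had the highest, 0.99. It is a low gene, at 0.335, 1.39 and 1.63 RPKM with FGF2 and 0.131, 0.532 and 0.487 RPKM with PBS in experiments 1, 2 and 3, and the lowest of these values is 2 reads. Its FGF2 to PBS ratios were 2.56, 2.62 and 3.34, all above 1 as in SHH, which its choice by correlation with SHH favours. The first of these ratios compares 15 reads with 2. ENSGALG00000041819 (correlation 0.99) and ENSGALG00000003815 (0.98) averaged 133 and 121 RPKM over the 6 libraries, with ratios of 1.11 to 1.37 and 1.08 to 1.17.
Likeness in level as well as pattern was taken as the root mean square difference from SHH on the log2 scale over the 6 libraries. The spread of SHH itself, an SD of 1.08 over these libraries, raises this difference for any steadier gene. The nearest was ENSGALG00000005668, at 0.64, with 79.3, 96.0 and 120 RPKM with FGF2 and 51.4, 59.8 and 62.9 RPKM with PBS. Its FGF2 libraries all lay above its PBS libraries, as in 6.69% of the genes tested and 10.2% of the 500 genes of like level. Its ratios of 1.54, 1.60 and 1.91 kept the order of those of SHH over a narrower range, which its choice by nearness to SHH favours. ENSGALG00000007659 (0.68) came next, with ratios of 1.18, 1.34 and 1.53. It was followed by ENSGALG00000039565 (0.69), whose ratios of 0.770, 1.36 and 1.09 were below 1 in experiment 1 and not in the order of those of SHH.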

How the data were processed

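Total RNA of 3 FGF2 and 3 PBS pools of chicken forelimb tissue was sequenced. The authors used systemPipeR, aligned the reads to the galGal5 build with HISAT2, compared treatments with edgeR, and deposited RPKM per Ensembl gene ID, with 1 column per library. The counting program, and whether it used strand, were not given in the sources used here. Columns were assigned to samples by name, and 0 columns were left unassigned.

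Totals were recovered from the steps of low values, and lengths as the shortest that made every value whole within 0.001 read. The recovered reads came to 98.8% to 99.2% of the totals. The method sets the share of whole values, so that share is no check, and a factor common to all reads of a library would not show.

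FGF2 and PBS were compared with limma 3.58.1 (R 4.3.3, trend, two-sided) on log2(RPKM + 0.5) over 13381 genes (mean RPKM of 0.5 or more), with Benjamini-Hochberg adjustment and a threshold of 0.05. Alternatives covered pseudocount, filter, scaling, variance model, weights, block, limma-voom and left-out libraries. Fits were tested on simulated data whose treatment effect was the same in every experiment, which the differences of SHH were not. SHH, its tests and the rule for the named IDs (the 3 highest correlations and the 3 smallest differences) were chosen with earlier results of these data known.

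The deviations of same-numbered FGF2 and PBS libraries from their treatment means correlated across genes at 0.44, 0.28 and 0.40, and those of other pairs at -0.29 to -0.12. Because the deviations within a treatment sum to 0, positive values for same-numbered pairs force negative ones among the other pairs. The negative values are therefore not separate evidence for the pairing. Every pair was above the limit of 0.1, so same-numbered libraries were treated as pairs, a pairing that the labels do not state.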

Additional observations from a re-analysis of the deposited data

How the results depend on the processing

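The SHH log2 fold change stayed above 0 in all 25 alternatives and missed the adjusted threshold in 23. All 3 paired differences of SHH were above 0, so fits with the replicate block could not fall below 0. The other fits drew on the same libraries, so the constant sign is not separate evidence of direction. With the replicate block, limma-voom on recovered reads gave 1.50 and passed. The replicate block in limma gave 1.23 and, with median-ratio scaling, 1.10, and neither changed the call. Leaving out single libraries or experiments gave 0.73 (without the FGF2 library of experiment 3) to 1.91 (without that of experiment 1), and limma-voom with the block also passed without experiment 2, at 1.67. The SHH level was lowest in experiment 1 in all 16 alternatives, and the range between experiments passed in 1, limma-voom on recovered reads, at 2.04. Leaving out single libraries gave 1.09 to 2.18. In these fits an experiment with 1 library is assumed to have the FGF2 to PBS difference of the other experiments. The percentile of that range among genes of like level was 98.6 to 99.0. Median-ratio scaling, added after the data were examined as were the fits without 1 experiment, gave FGF2 to PBS ratios of 1.18 and 3.64 in experiments 1 and 3, outside the counting intervals. The cause of these differences was not tested. The counting error of SHH was at most 6.23%, in the PBS library of experiment 1, the shallowest and the one given the least weight by limma-voom. With 3 pools per treatment, the standard error of the log2 fold change was 0.55 in the unpaired limma test and 0.28 in limma with the block. What limited each test was not tested.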
